A study of Mus musculus with 8 samples.

Results

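Mitochondria carry their own ribosome, which translates the few respiratory chain proteins encoded in mitochondrial DNA. Its RNA comes from the mitochondrial genome, whereas all of its proteins, the mitochondrial ribosomal proteins (MRPs), are encoded in the nucleus, translated on cytosolic ribosomes and imported. The small subunit (Mrps genes) reads the messenger RNA, and the large subunit (Mrpl genes) forms the peptide bond and holds the exit tunnel that faces the inner membrane. MRP genes were taken as every row of the deposited expression table whose symbol begins with Mrps or Mrpl and a number. The rule uses the name only, and it gave 72 of 8562 genes, 28 named for the small and 44 for the large subunit. Subunits in all counts below are those of the symbol, which need not be where the protein lies. Mrps18a and Mrps36, for example, were counted with the small subunit.

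The question was whether the mRNA and the ribosome occupancy of these genes differed in fat that lacks HuR, an RNA-binding protein encoded by Elavl1 that binds AU-rich sites in messenger RNA. Epididymal white adipose tissue came from male mice aged 6 weeks. Controls (Ctrl) were littermates with floxed HuR alleles (HuR f/f), and HuR-FKO mice carried the same floxed alleles together with Cre under the adiponectin promoter (AdipoQ-Cre; HuR f/f), which acts in adipocytes and leaves HuR in the other cells of the tissue. Each genotype had 2 replicates, each of which pooled 3 mice. Each replicate had an mRNA library and a ribosome-protected fragment (RPF) library, so there were 8 libraries and n = 2 per group. Libraries of both kinds with the same number in their titles were taken to come from the same pool. RPF reports the ribosomes on a coding sequence, and translational efficiency (TE) is RPF relative to mRNA.

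Elavl1 itself did not separate the genotypes in mRNA and passed the test in neither assay. Its mRNA level was 40.8 and 49.8 RPKM (reads scaled by coding length and library total) in Ctrl and 41.6 and 43.3 RPKM in HuR-FKO, and its RPF level was 64.6 and 81.8 RPKM against 56.0 and 63.3 RPKM. The log2 fold change of Elavl1 was -0.08 in mRNA (adjusted p = 0.696, limma) and -0.28 in RPF (adjusted p = 0.668, limma). Directions below are therefore those of the libraries labelled HuR-FKO. The adipocyte markers Adipoq, Plin1, Cidec, Lep, Fabp4 and Pparg were all listed, at a summed mRNA level of 36464 and 41386 RPKM in Ctrl and 47666 and 48226 RPKM in HuR-FKO. Most of this sum was Fabp4, at 26430 and 32250 RPKM in Ctrl and 37990 and 38630 RPKM in HuR-FKO. The adipocyte markers did not move together. Their mRNA log2 fold changes were 0.39 (Fabp4), 0.32 (Cidec), 0.02 (Adipoq), 0.02 (Pparg), -0.42 (Plin1) and -0.70 (Lep). The summed mRNA level of 6 red blood cell markers was 12267 and 8331 RPKM in Ctrl and 3605 and 5984 RPKM in HuR-FKO, and that of 6 macrophage markers was 350.4 and 300.4 RPKM against 438 and 421 RPKM. The 5 hemoglobin genes among the red blood cell markers and Lep fell in mRNA, and 3 of 6 macrophage markers rose (limma, adjusted p below 0.05). Of all genes, 6.54% fell and 7.5% rose. The Ctrl pools differed in 4 endothelial markers, at a summed mRNA level of 396 and 684 RPKM (541 and 650 RPKM in HuR-FKO). They also differed in 4 mesothelial markers, at 148 and 78.1 RPKM (107 and 117 RPKM in HuR-FKO). Of these markers and 3 fibroblast markers, 0 passed the test in mRNA or RPF (limma). The lymphocyte and the epididymis markers checked were not among the listed genes, nor were Ucp1 and Dio2 of brown fat. In such bulk samples, fewer cells of a type and less RNA per cell cannot be told apart, and the part of these cell types in the results below was not tested.

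MRP genes were moderately abundant. In Ctrl mRNA, 65 of 72 lay above the median gene of the table, and the ranks ran from 797 to 5931. The median MRP level in mRNA was 65.1 and 70.7 RPKM in the Ctrl pools and 60.5 and 58.0 RPKM in the HuR-FKO pools, while the median over all genes was between 31.2 and 32.5 RPKM in every mRNA library. In RPF the median MRP level was 41.7 and 45.3 RPKM in Ctrl and 44.5 and 37.8 RPKM in HuR-FKO. The mRNA medians of the genotypes did not overlap, and the RPF medians did. MRP genes together took 0.291% and 0.313% of the coding reads of the Ctrl mRNA libraries, and 0.265% and 0.257% of those of HuR-FKO. Their share of RPF reads was 0.223% and 0.224% in Ctrl, against 0.221% and 0.201% in HuR-FKO.

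The subunits sat at a like level. In Ctrl mRNA the median was 63.8 and 70.1 RPKM for the small and 66.0 and 70.9 RPKM for the large subunit. Over all members, mean Ctrl levels spanned a 9.97-fold range in mRNA and a 23.5-fold range in RPF, although most of these proteins are present once in each assembled ribosome.

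The most abundant small subunit mRNAs were Mrps6, Mrps21 and Mrps14. Mrps14 measured 123 and 139 RPKM in Ctrl and 115 and 110 RPKM in HuR-FKO mRNA, and Mrps6 and Mrps21 are given with the genes that fell. At the other end, Mrps2 measured 18.1 and 23.7 RPKM in Ctrl and 18.0 and 18.8 RPKM in HuR-FKO mRNA. Mrps27, a protein with pentatricopeptide repeats, was at 23.2 and 19.7 RPKM in Ctrl and 17.8 and 16.1 RPKM in HuR-FKO, and Mrps31 was at 23.2 and 24.4 RPKM in Ctrl and 25.4 and 27.0 RPKM in HuR-FKO. Mrps27 therefore lay lower and Mrps31 higher in both HuR-FKO pools, and neither passed the test.

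In the large subunit, Mrpl51, Mrpl33 and Mrpl20 were the most abundant. Mrpl51 measured 157 and 216 RPKM in Ctrl and 179 and 187 RPKM in HuR-FKO mRNA, with the HuR-FKO pools between the Ctrl pools. Mrpl33 measured 163 and 195 RPKM in Ctrl and 188 and 163 RPKM in HuR-FKO, and Mrpl20 measured 142 and 184 RPKM against 137 and 127 RPKM. Of these, Mrpl20 alone had its HuR-FKO values under both Ctrl values. The least abundant were Mrpl47, at 18.1 and 19.3 RPKM in Ctrl mRNA, Mrpl1 of the stalk beside the tRNA exit site, at 21.4 and 18.5 RPKM, and Mrpl46, at 23.3 and 30.9 RPKM. Their HuR-FKO levels were 17.4 and 23.2 RPKM, 23.3 and 21.2 RPKM, and 27.9 and 24.2 RPKM, which overlapped with Ctrl in each case.

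**Figure D1:**
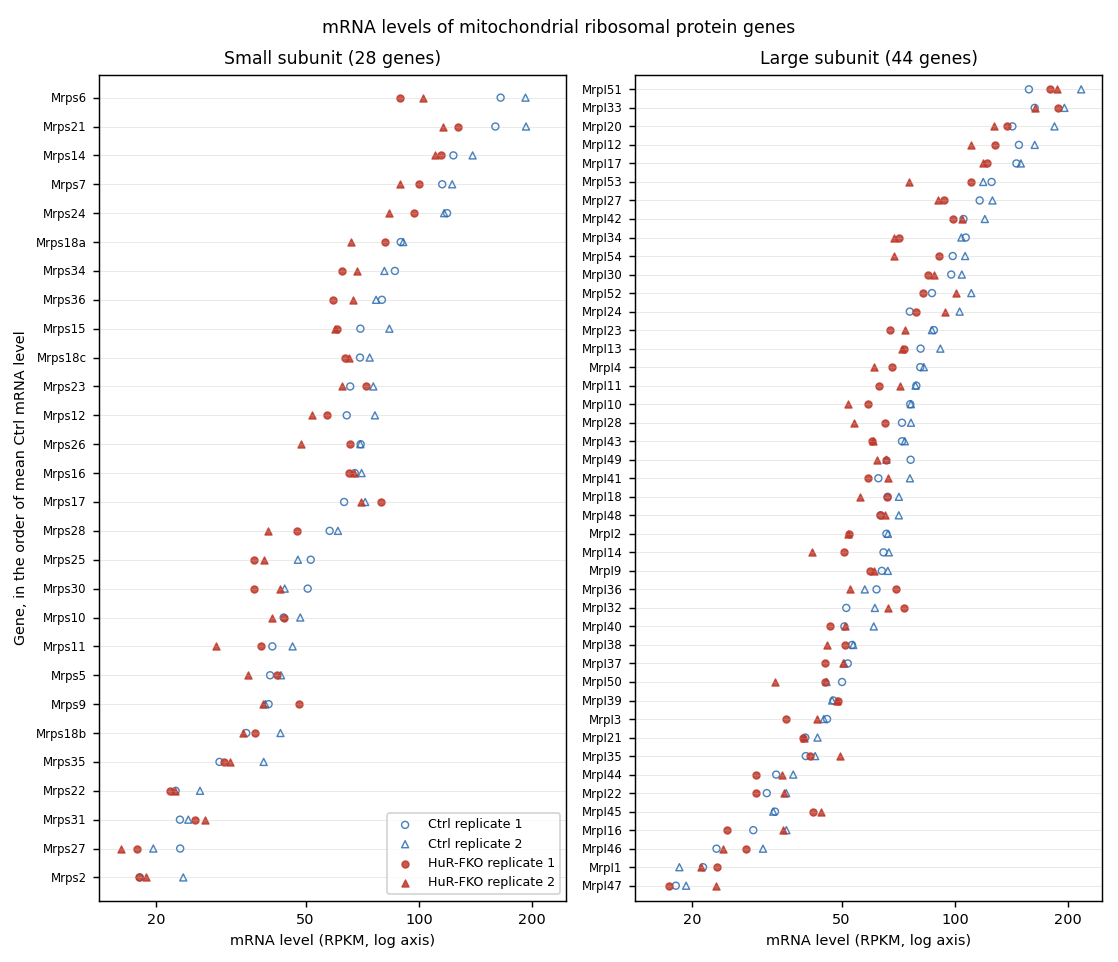
mRNA level of each mitochondrial ribosomal protein gene in RPKM (log axis), small subunit on the left and large subunit on the right, in the order of the mean Ctrl level, with open blue marks for Ctrl, filled red marks for HuR-FKO, circles for replicate 1 and triangles for replicate 2. In 46 of the 72 genes both red marks lie to the left of both blue marks, and in 4 both lie to the right.

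In mRNA, most MRP genes lay slightly under Ctrl. Of 72 genes, 62 had a log2 fold change below 0, with a median of -0.18, against a median of 0.02 over all 8562 genes, of which 46.6% were below 0. By the test (limma, adjusted p below 0.05 over all genes), 7 MRP genes or 9.72% were lower and 0 were higher, where 6.54% of all genes were lower and 7.5% higher. At an unadjusted p below 0.05, 28 of 72 members (38.9%) differed in either direction, against 30.6% of all genes. Limma-voom on the recovered reads of 71 members gave 7 lower and 0 higher, against 7.22% and 11.1% of all 8115 genes so tested. Of these 7, 6 were also lower by limma, with Mrpl12 in place of Mrps28. Both HuR-FKO values were under both Ctrl values in 46 MRP genes (63.9%), against 27.8% of all genes, and above them in 4 (5.56%), against 32.5% of all genes. The share of called genes was thus near the background, whereas the share of genes whose pools did not overlap was above it on the lower side and below it on the higher side.

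Both subunits had a median below 0. The small subunit had 3 of 28 genes lower by the test and a median log2 fold change of -0.27, and the large subunit had 4 of 44 lower and a median of -0.15. The difference between the subunits was not tested, since genes are not replicates. The pools of 1 genotype also differed from each other: the median MRP gene was 0.09 higher on the log2 scale in Ctrl replicate 2 than in replicate 1, with 52 of 72 genes higher, against 0.02 over all genes. The difference between the HuR-FKO pools was -0.02 for MRP genes and 0.02 for all genes.

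Mrps6 (NM_080456, chromosome 16), a small subunit protein with a bacterial homologue, fell furthest. Its mRNA level was 165 and 192 RPKM in Ctrl (178 ± 19.1, SD, n = 2) and 88.9 and 103 RPKM in HuR-FKO (95.8 ± 9.76, SD, n = 2), 53.7% of Ctrl. The HuR-FKO pools lay well under both Ctrl pools, with a log2 fold change of -0.89 (SE 0.13, adjusted p = 0.00209, limma). Its RPF level was also lower in both HuR-FKO pools, at 186 and 165 RPKM in Ctrl and 95.0 and 89.8 RPKM in HuR-FKO, 52.6% of Ctrl. The RPF fold change was -0.92 on the log2 scale (SE 0.16, adjusted p = 0.0646, limma), which missed the threshold, and the TE change was -0.03 (SE 0.20). Behind the RPF values stood 81 and 45 reads in Ctrl and 47 and 18 reads in HuR-FKO. In the GENCODE M21 annotation, 45 of 375 coding bases of Mrps6 (12%) lie in exons shared with Slc5a3 on the same strand. Reads on this stretch cannot be assigned to 1 of these genes. A further protein-coding model, Gm49711, overlaps Mrps6 coding exons on the same strand, to an extent that was not measured.

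Mrpl34 (NM_053162, chromosome 8), a small large-subunit protein with a bacterial homologue, was at 107 and 104 RPKM in Ctrl mRNA and 70.9 and 68.7 RPKM in HuR-FKO mRNA. These pools were tightly grouped within each genotype, and the log2 fold change was -0.59 (SE 0.11, adjusted p = 0.0092, limma). In RPF, Mrpl34 went the other way, at 68.6 and 54.7 RPKM in Ctrl and 65.8 and 94.7 RPKM in HuR-FKO, with pools that overlapped. The RPF fold change was 0.36 on the log2 scale (SE 0.23, adjusted p = 0.636, limma) and rested on 11 to 24 reads per library.

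Mrps21 (NM_078479, chromosome 3), another protein with a bacterial homologue, was at 160 and 192 RPKM in Ctrl mRNA and 127 and 116 RPKM in HuR-FKO mRNA. The log2 fold change was -0.53 (SE 0.13, adjusted p = 0.0251, limma). Its RPF level was 158 and 173 RPKM in Ctrl and 238 and 143 RPKM in HuR-FKO, where 1 HuR-FKO pool was above and the other below both Ctrl pools. RPF thus gave no direction for Mrps21.

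The other genes that fell were Mrpl14, Mrpl10, Mrps28 and Mrpl27. Mrpl14 (NM_026732, chromosome 17), at the face between the subunits, was at 64.6 and 66.7 RPKM in Ctrl mRNA and 50.8 and 41.8 RPKM in HuR-FKO. Mrpl10 (NM_026154, chromosome 11), the base of the stalk that receives translation factors, was at 76.0 and 76.4 RPKM in Ctrl and 58.8 and 51.9 RPKM in HuR-FKO. Their log2 fold changes were -0.50 (SE 0.13, adjusted p = 0.0319, limma) and -0.46 (SE 0.12, adjusted p = 0.033, limma).

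Mrps28 (NM_025434, chromosome 3) was at 57.9 and 60.9 RPKM in Ctrl mRNA and 47.5 and 39.8 RPKM in HuR-FKO (log2 fold change -0.44, SE 0.13). Mrpl27 (NM_053161, chromosome 11), whose bacterial homologue lies close to the peptidyl transferase centre, was at 116 and 126 RPKM in Ctrl and 93.6 and 90.2 RPKM in HuR-FKO (log2 fold change -0.39, SE 0.11). Both had an adjusted p of 0.0471 (limma), just inside the threshold. With limma-voom Mrps28 missed it (adjusted p = 0.0552) and Mrpl27 passed (adjusted p = 0.0485). In RPF, Mrps28 was at 54.2 and 66.6 RPKM in Ctrl and 53.1 and 53.7 RPKM in HuR-FKO, and the genotypes of Mrpl14, Mrpl10 and Mrpl27 overlapped.

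With a pool left out, the remaining pool of its genotype was assumed to vary like the others. Without HuR-FKO replicate 1, 0 of the 7 genes passed by limma, with adjusted p from 0.055 (Mrps6) to 0.163 (Mrpl27). All 7 kept a log2 fold change below 0, from -0.79 to -0.42, which for 6 of them (not Mrps6) was further from 0 than with all pools, and the genes called lower in the whole table dropped from 560 to 95. Without HuR-FKO replicate 2, Mrps6 passed (adjusted p = 0.0287) and the others did not, at fold changes from -0.99 to -0.32 that were nearer to 0 for 6 of the 7, with 97 genes lower in the whole table. Without Ctrl replicate 2, 5 MRP genes were lower, 4 of them among the 7, of 527 in the table, and without Ctrl replicate 1, 12 were lower, including all 7, of 717. Where each library's trend with transcript length and G+C content was taken out, 3 MRP genes were lower, of 414 among the 8245 genes so tested. Mrps6 was the only 1 of them among the 7.

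**Figure D2:**
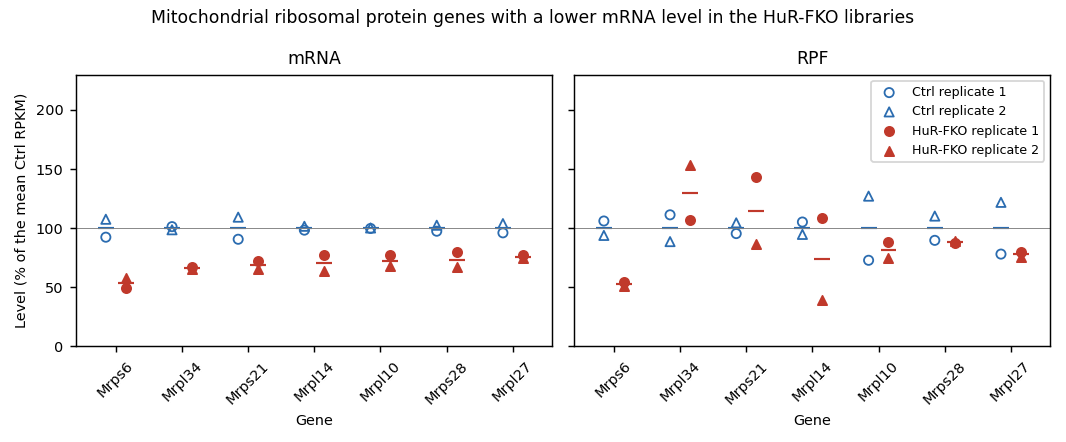
Level of the 7 genes with a lower mRNA level, as a percentage of the mean Ctrl RPKM, in mRNA (left) and RPF (right), with marks for single libraries and bars for the mean of 2. In mRNA all HuR-FKO marks lie under all Ctrl marks of the same gene, from 53.7% (Mrps6) to 75.9% (Mrpl27) on average, and in RPF this holds for Mrps6 and Mrps28.

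Transcript length moved with the mRNA result. MRP transcripts were short, with a median of 1224 bases in GENCODE M21 against 2981 bases over the 8245 genes of the table with a matched model, and a median coding length of 578 against 1404 bases. Genes with transcripts under 1000 bases had a median log2 fold change of -0.20 in mRNA (550 genes, 18% of them lower by the test), those from 1000 to 2000 bases -0.09 (1768 genes), and longer ones 0.09 (5927 genes). The corresponding medians of MRP genes were -0.32 (24 genes), -0.14 (29 genes) and -0.12 (19 genes, a thinly filled class), and 6 of the 7 lower genes had transcripts under 1000 bases. In each class the MRP median was under that of all genes, by -0.12, -0.04 and -0.21. Once each library's trend with transcript length and G+C content was taken out, the median MRP log2 fold change was -0.07 in place of -0.18, against 0.02 over all genes. The part of transcript length in the remaining difference was not tested.

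Of 72 MRP genes, 10 had a log2 fold change above 0 in mRNA. The highest were Mrpl45, Mrpl32 and Mrpl1. Mrpl45, which anchors the mitochondrial ribosome to the inner membrane, was at 33.3 and 32.9 RPKM in Ctrl and 42.0 and 44.1 RPKM in HuR-FKO (log2 fold change 0.37, SE 0.12, adjusted p = 0.0613, limma). Mrpl32, whose maturation needs the m-AAA protease, was at 51.4 and 61.3 RPKM in Ctrl and 73.1 and 66.4 RPKM in HuR-FKO (log2 fold change 0.31, SE 0.13, adjusted p = 0.142, limma). Both HuR-FKO pools exceeded both Ctrl pools in these genes, and neither passed the test. Mrpl1 had a log2 fold change of 0.15 with overlapping pools.

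Promoters of MRP genes were compared as sequence. RefSeq (GRCm38.p6) windows of 250 bases before to 50 bases after the start were matched for 65 of the 72 members and for 27025 genes in all, and were searched on both strands for 5 motifs. The core of the site of NRF1, a regulator of many nuclear genes for mitochondria, was searched as TGCGCA and found in 29.2% of members, 17% of the genes of the table and 8.79% of all genes. The site of the ETS family of activators was searched as CCGGAAG and found in 35.4%, 21.3% and 9.93% of these genes. The site of YY1, which often lies just after the start of genes for mitochondrial and ribosomal proteins, was searched as AAGATGG and found in 20%, 9.06% and 7.28%. The TATA box, searched as TATAAA, was found in 7.69%, 8.91% and 15.7% of these genes. The CCAAT box, with these letters, was about equally frequent, at 41.5%, 42.3% and 41.1%. The ETS and YY1 motifs can share letters, which happened in 0 member windows.

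At least 1 of the NRF1, ETS and YY1 motifs stood in 41 of 65 members. In the small subunit 36% of genes held the NRF1 core and 40% the ETS motif, and in the large subunit 25% and 32.5%. Among the 6 genes lower in mRNA with a window, 2 held the NRF1 core, 3 the ETS motif and 0 the YY1 motif. Such matches are a description and no evidence of binding. The windows of the 3 genes that fell furthest are printed together with that of Mrps11, a small subunit gene that starts 42 bases from Mrpl46 of the large subunit on the other strand, with motif letters in capitals. Coordinates and strands are chr16:92058086-92058385 (+) for Mrps6, chr8:71464676-71464975 (+) for Mrpl34, chr3:95871465-95871764 (-) for Mrps21 and chr7:78782881-78783180 (+) for Mrps11.
Mrps6: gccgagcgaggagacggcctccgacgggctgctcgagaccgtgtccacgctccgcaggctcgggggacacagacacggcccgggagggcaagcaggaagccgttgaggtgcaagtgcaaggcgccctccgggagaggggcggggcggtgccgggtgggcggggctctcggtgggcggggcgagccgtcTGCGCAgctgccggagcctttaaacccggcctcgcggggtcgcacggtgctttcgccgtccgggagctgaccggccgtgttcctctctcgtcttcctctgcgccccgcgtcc
Mrpl34: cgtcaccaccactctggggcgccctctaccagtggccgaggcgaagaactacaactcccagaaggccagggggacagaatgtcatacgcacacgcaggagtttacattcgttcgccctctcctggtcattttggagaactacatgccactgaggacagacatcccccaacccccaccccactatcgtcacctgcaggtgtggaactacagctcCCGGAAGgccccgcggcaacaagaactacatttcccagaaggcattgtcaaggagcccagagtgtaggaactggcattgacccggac
Mrps21: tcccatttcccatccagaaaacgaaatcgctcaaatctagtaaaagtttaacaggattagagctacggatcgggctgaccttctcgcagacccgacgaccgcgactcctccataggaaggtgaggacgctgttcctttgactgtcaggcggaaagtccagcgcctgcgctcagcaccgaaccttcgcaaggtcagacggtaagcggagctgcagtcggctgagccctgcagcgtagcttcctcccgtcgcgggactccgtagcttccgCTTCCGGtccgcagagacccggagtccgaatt
Mrps11: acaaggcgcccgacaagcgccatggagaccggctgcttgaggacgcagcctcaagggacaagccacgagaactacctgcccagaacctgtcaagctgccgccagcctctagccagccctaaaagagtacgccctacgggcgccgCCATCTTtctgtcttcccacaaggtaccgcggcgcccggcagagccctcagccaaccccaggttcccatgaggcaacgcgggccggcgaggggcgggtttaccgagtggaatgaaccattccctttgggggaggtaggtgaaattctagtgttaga
The capitals are the NRF1 core in Mrps6, 62 bases before the start, the ETS motif in Mrpl34, 37 bases before it, and the reverse complement of the ETS motif in Mrps21, shortly after it. In Mrps11 they are the reverse complement of the YY1 motif. The Mrps6 window had 73.7% G+C and 39 CG dinucleotides, against medians of 58% and 21 over members.

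Starts on opposite strands within 1000 bases of each other were found for 25 of the 65 members (38.5%), against 22% of the genes of the table and 14% of all genes. Partners included Tcp1 (Mrpl18), Psma2 (Mrpl32), Fau (Mrpl49), Ndufb5 (Mrpl47) and Sars2 (Mrps12). Mrps11 and Mrpl46 were the only members paired with each other. Mrps11 was at 40.8 and 46.2 RPKM in Ctrl mRNA and 38.0 and 28.9 RPKM in HuR-FKO, with both HuR-FKO pools under both Ctrl pools, a log2 fold change of -0.38 (SE 0.15, adjusted p = 0.12, limma). Mrpl46 measured -0.04 with overlapping pools. Coding exons of 16 members overlap an exon of another gene in GENCODE M21, 12 of them on the opposite strand and 4 on the same strand, and whether counting of these libraries used the strand is not given in the sources used here.

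In RPF, MRP genes showed little net shift. The median log2 fold change was -0.08 (0.05 without HuR-FKO replicate 2), against -0.05 over all genes, and 43 of 72 were below 0 (59.7%), against 55.8% of all genes. By limma, 0 of 72 passed in either direction, where 0.117% of all genes were lower and 0.327% higher. At an unadjusted p below 0.05 were 8 members (11.1%), near the 10.7% of all genes. With limma-voom on the recovered reads, 1 member (Mrps6) was lower and 0 higher, against 0.949% and 1.2% of all genes. Pools without overlap were found for 12 members on the lower side (16.7%), against 24.1% of all genes, and for 12 on the higher side (16.7%), against 17.7%. RPF was shallow, with a median of 32 and 20 reads per MRP gene in Ctrl and 37 and 13 in HuR-FKO, against 188.5 to 317.5 in the mRNA libraries. In HuR-FKO replicate 2, 55 of the 72 members had under 20 RPF reads (rounded for Mrps2, whose values gave no whole reads), so that small differences were not detectable at this depth.

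The members with the lowest RPF fold changes were Mrps15, Mrps6 and Mrpl42. Mrps15 was at 44.7 and 57.0 RPKM in Ctrl and 39.3 and 12.1 RPKM in HuR-FKO (log2 fold change -1.16, SE 0.46, adjusted p = 0.418, limma), and the lowest value rested on 5 reads. Mrpl42 was at 70.9 and 61.3 RPKM in Ctrl and 49.9 and 30.7 RPKM in HuR-FKO (log2 fold change -0.74, SE 0.26, adjusted p = 0.373, limma). In each of these the HuR-FKO pools lay under the Ctrl pools.

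The members with the highest RPF fold changes were Mrpl37, Mrps27 and Mrpl44. Mrpl37 was at 18.4 and 14.1 RPKM in Ctrl and 18.0 and 50.3 RPKM in HuR-FKO, so the log2 fold change of 0.86 (SE 0.44) came from 1 pool. Mrps27 was at 7.65 and 8.86 RPKM in Ctrl and 14.1 and 16.6 RPKM in HuR-FKO (log2 fold change 0.82, SE 0.28, adjusted p = 0.36, limma) on 8 to 23 reads per library. Mrpl44, which has a ribonuclease III-like fold, was at 21.7 and 22.1 RPKM in Ctrl and 38.8 and 24.4 RPKM in HuR-FKO (log2 fold change 0.48, SE 0.28). Mrps27 and Mrpl44 were higher in both HuR-FKO pools, and none of the 3 passed the test.

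**Figure D3:**
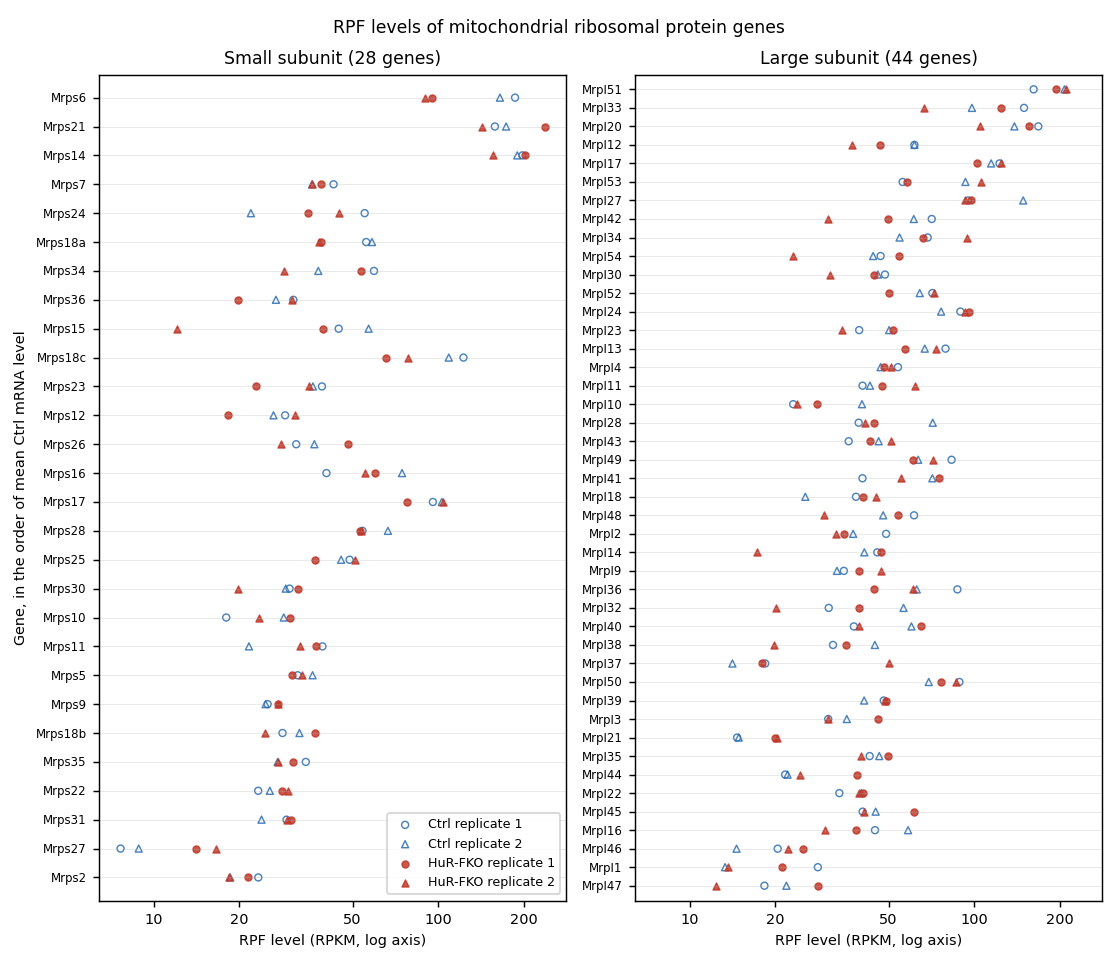
RPF level of each mitochondrial ribosomal protein gene in RPKM (log axis), with genes in the same order and marks with the same meaning as in the plot of mRNA levels. The marks of a genotype lie further apart than in mRNA, and the HuR-FKO marks are both to the left of Ctrl in 12 genes and both to the right in 12.

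The paralogues Mrps18a, Mrps18b and Mrps18c share descent from 1 bacterial small subunit protein, and Mrps18a has been placed in the large subunit of the mammalian mitochondrial ribosome despite its name. Of the paralogues, Mrps18c had the highest RPF level, at 123 and 109 RPKM in Ctrl and 65.4 and 78.5 RPKM in HuR-FKO (log2 fold change -0.68, SE 0.18, adjusted p = 0.23, limma). Mrps18a was at 55.8 and 58.5 RPKM in Ctrl RPF and 38.8 and 38.2 RPKM in HuR-FKO (log2 fold change -0.56, SE 0.20, adjusted p = 0.377, limma). Both were under Ctrl in both pools. Mrps18b was at 28.4 and 32.5 RPKM in Ctrl and 36.9 and 24.6 RPKM in HuR-FKO, with overlapping pools and a log2 fold change of -0.01. In mRNA the paralogues had log2 fold changes of -0.29 (Mrps18a), -0.13 (Mrps18b) and -0.15 (Mrps18c), and none passed the test.

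Changes in mRNA and RPF were weakly related over members. Both were below 0 in 37 genes, mRNA was below and RPF above 0 in 25, mRNA was above and RPF below 0 in 6, and both were above 0 in 4. Across the 72 genes the correlation of the fold changes was r = 0.184 (Spearman's rho 0.18), over points that share their libraries. The Ctrl levels, by contrast, were related, with r = 0.772 (Spearman's rho 0.728) between log2 mRNA and log2 RPF. Levels were also closely related between genotypes, with r = 0.969 in mRNA and r = 0.914 in RPF.

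**Figure D4:**
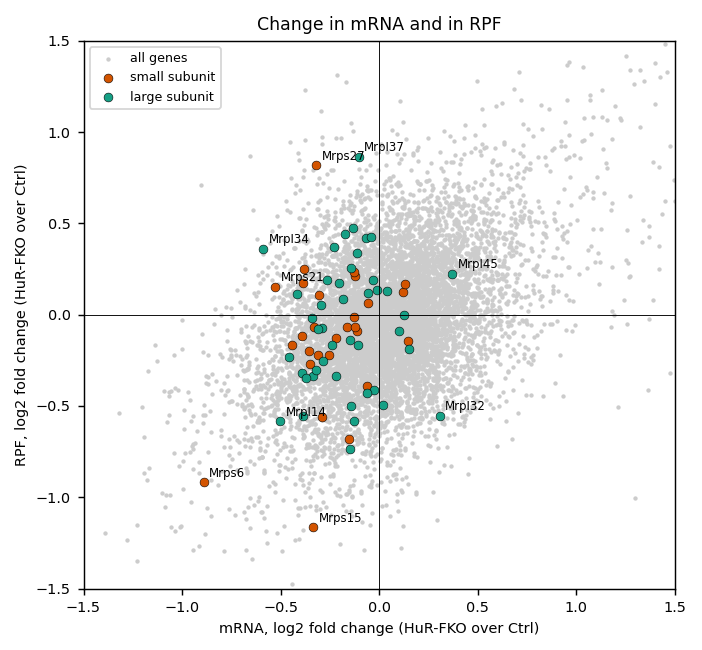
Log2 fold change (HuR-FKO over Ctrl) in mRNA (horizontal) and in RPF (vertical) for all genes in grey and for members of the small subunit (orange) and the large subunit (green), with axes limited to 1.5 in either direction. Most coloured points lie left of 0 (62 of 72), spread above and below 0 in RPF, and Mrps6 is the furthest to the left.

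In Ctrl, MRP genes carried slightly fewer RPF reads per mRNA than the median gene. TE was taken per pool as log2 of RPF over mRNA, with 1 RPKM added to each, minus the median over all genes of the same pool. The median over MRP genes was -0.19 and -0.17 in the Ctrl pools, and 34 of 72 genes were under the median gene in both pools against 19 above it in both. Over all 8562 genes, 3609 were under and 3609 above in both Ctrl pools. In HuR-FKO the MRP median was 0.12 and 0.05, with 24 genes under and 29 above (3604 and 3604 over all genes). The genotypes did not overlap in this median for the small subunit (-0.16 and -0.22 in Ctrl, 0.19 and 0.11 in HuR-FKO) or the large subunit (-0.19 and -0.15 in Ctrl, 0.04 and 0.04 in HuR-FKO).

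The gene-wise test of TE (limma, interaction of genotype and assay) gave 0 of 72 members in either direction, where 0.0117% of all genes were lower and 0% higher. At an unadjusted p below 0.05 were 5 members (6.94%), near the 8.04% of all genes. Limma-voom also gave 0 members, and 0.0246% of all genes were lower by it. A TE change above 0 was found for 50 of 72 members and 3577 of all 8562 genes. The median TE change was 0.09 for MRP genes and -0.07 for all genes. For transcripts under 1000 bases it was 0.05 for MRP genes and 0.13 for all genes. From 1000 to 2000 bases it was 0.23 and 0.03, and for longer transcripts 0.09 and -0.12. Once each library's trend with transcript length and G+C content was taken out, the medians were 0.02 for MRP genes and -0.07 for all genes. The part of transcript length in the TE change was not tested. Leaving out a pool in turn moved the MRP median between 0.01 and 0.17. The highest TE changes were those of Mrps27, with 1.14 (SE 0.28, adjusted p = 0.573, limma), and Mrpl37, with 0.97 (SE 0.53, adjusted p = 0.658, limma). The lowest were those of Mrpl32, with -0.86 (SE 0.46), and Mrps15, with -0.83 (SE 0.58).

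Members ranged in Ctrl TE from -1.44 to 0.98 on the log2 scale relative to the median gene. The ratio of mean RPF to mean mRNA RPKM in Ctrl was highest for Mrpl50 (1.65), Mrps18c (1.61) and Mrpl16 (1.60), and lowest for Mrpl37 (0.317), Mrps24 (0.328) and Mrps7 (0.332). Mrpl50, for example, had an mRNA level of 50.1 and 45.6 RPKM and an RPF level of 88.7 and 69.2 RPKM in Ctrl, whereas Mrps7 had 115 and 123 RPKM in mRNA and 42.9 and 36.1 RPKM in RPF. RPF exceeded mRNA in 17 members, and the median ratio was 0.724 for members and 0.823 for all genes. TE in HuR-FKO correlated with TE in Ctrl at r = 0.768 over the 72 genes, which share their libraries.

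Cytosolic ribosomal proteins and the respiratory chain gave a frame for these values. In Ctrl the median TE relative to the median gene was -1.39 and -1.62 for 87 cytosolic ribosomal protein genes (S6 kinases left out) and 0.58 and 0.54 for 84 genes of respiratory chain subunits and their assembly. MRP genes lay between them, nearer to the median gene. In mRNA, 19 of the 84 respiratory chain genes (22.6%) were lower and 0 higher by limma (24 and 0 by limma-voom), with a median log2 fold change of -0.27. Of the 87 cytosolic ribosomal protein genes, 1 (1.15%) was lower (6 by limma-voom), with a median of -0.11. Over all genes, 6.54% were lower and 7.5% higher (7.22% and 11.1% by limma-voom). Both HuR-FKO pools were under both Ctrl pools in 73.8% of the respiratory chain and 46.0% of the cytosolic genes, against 27.8% of all genes. Both groups showed TE medians that were higher in the HuR-FKO pools than in the Ctrl pools, as MRP genes did.

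**Figure D5:**
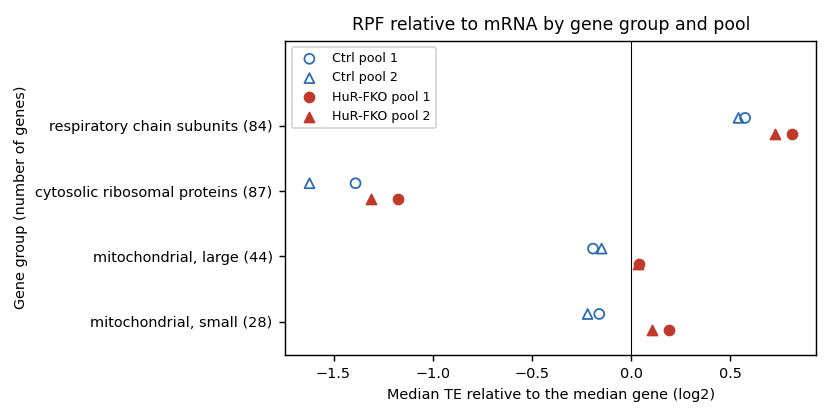
Median TE (log2 RPF over mRNA, relative to the median gene of the pool) of 4 gene groups, with the number of genes in parentheses, open blue marks for Ctrl pools and filled red marks for HuR-FKO pools. Both subunits of the mitochondrial ribosome lie near 0, between cytosolic ribosomal proteins (near -1.39 and -1.62 in Ctrl) and the respiratory chain, and in each group both red marks lie to the right of both blue marks.

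Proteins of the mitochondrial ribosome with other symbols also lay under Ctrl. All 7 listed (Dap3, Chchd1, Ptcd3, Aurkaip1, Gadd45gip1, Mrp63 and Ict1) had a log2 fold change below 0 in mRNA, with a median of -0.24, and 0 of 7 passed the test (limma, with 3 at an unadjusted p below 0.05, and 0 by limma-voom). Of all genes, 46.6% were below 0 and 30.6% had an unadjusted p below 0.05 (limma). The most abundant were Aurkaip1, at 120 and 131 RPKM in Ctrl mRNA and 111 and 92.1 RPKM in HuR-FKO, and Chchd1, at 88.5 and 90.6 RPKM against 72.6 and 82.8 RPKM. Both were lower in both HuR-FKO pools.

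Mitochondrial translation factors were measured for 12 of 18 listed genes. In mRNA, 2 of them (16.7%) fell and 0 rose by limma, against 6.54% and 7.5% of all genes. By limma-voom, 3 fell and 0 rose, against 7.22% and 11.1% of all genes. Tufm, the elongation factor that brings tRNA to the mitochondrial ribosome, was at 91.1 and 89.0 RPKM in Ctrl and 68.0 and 69.0 RPKM in HuR-FKO (log2 fold change -0.39, SE 0.11, adjusted p = 0.0459, limma). Tsfm, its exchange factor, was at 35.9 and 42.8 RPKM in Ctrl and 27.9 and 24.4 RPKM in HuR-FKO (log2 fold change -0.57, SE 0.14, adjusted p = 0.0236, limma). Their partner in translocation, Gfm1, measured -0.37 and missed the threshold (adjusted p = 0.0632, limma).

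Assembly factors were measured for 19 of 27 listed genes. Of these, 2 (10.5%) fell and 0 rose in mRNA by limma, against 6.54% and 7.5% of all genes. By limma-voom, 1 fell and 0 rose, without Malsu1, against 7.22% and 11.1% of all genes. Mpv17l2, an inner membrane protein needed for assembly of the mitochondrial ribosome, was at 81.3 and 87.4 RPKM in Ctrl and 49.0 and 46.8 RPKM in HuR-FKO (log2 fold change -0.80, SE 0.12, adjusted p = 0.00203, limma). Malsu1, which binds Mrpl14 and keeps the subunits from joining early, was at 36.9 and 32.2 RPKM in Ctrl and 23.2 and 26.6 RPKM in HuR-FKO (log2 fold change -0.46, SE 0.13, adjusted p = 0.0477, limma). Both Malsu1 and Mrpl14 were thus lower in mRNA.

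Aminoacyl-tRNA synthetases of mitochondria were measured for 13 of 19 genes and 0 passed in mRNA by limma or limma-voom, with a median log2 fold change of -0.04. At an unadjusted p below 0.05 (limma) were 2 of them (15.4%), against 30.6% of all genes. The most abundant were Iars2, at 64.1 and 66.7 RPKM in Ctrl and 62.9 and 61.6 RPKM in HuR-FKO, and Gars, which also serves the cytosol, at 60.4 and 63.6 RPKM against 58.0 and 64.6 RPKM. Of 18 measured genes of mitochondrial RNA synthesis and processing, 1 (5.56%) rose and 0 fell, against 7.5% and 6.54% of all genes. Trit1, a tRNA-modifying enzyme that acts in the cytosol and in mitochondria, was at 20.2 and 19.1 RPKM in Ctrl and 50.5 and 52.3 RPKM in HuR-FKO (log2 fold change 1.34, SE 0.12, adjusted p = 0.000151, limma). In RPF, 0 of the 69 measured genes of these 5 lists passed by limma. At an unadjusted p below 0.05 were 10 of them, where 10.7% of all genes were. By limma-voom 1 (Trit1) rose, where 1.2% of all genes did. In TE, 0 passed by either tool, with 10 of the 69 at an unadjusted p below 0.05 (limma), where 8.04% of all genes were.

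The study lists 5 members among transcripts recovered with HuR from this tissue, Mrpl18, Mrpl22, Mrpl28, Mrpl47 and Mrps36, the last of which has since been assigned to the oxoglutarate dehydrogenase complex. Mrpl28 was at 72.3 and 76.4 RPKM in Ctrl mRNA and 65.1 and 54.0 RPKM in HuR-FKO (log2 fold change -0.32, SE 0.13, adjusted p = 0.126, limma). Mrps36 was at 79.7 and 76.9 RPKM in Ctrl and 59.0 and 66.9 RPKM in HuR-FKO (log2 fold change -0.31, SE 0.12, adjusted p = 0.11, limma). Both were lower in both HuR-FKO pools. Mrpl18, Mrpl22 and Mrpl47 measured -0.17, -0.05 and 0.10 in mRNA. Mrpl18 was also lower in both HuR-FKO pools, at 66.0 and 56.0 RPKM against 66.3 and 71.0 RPKM. Both HuR-FKO pools thus lay under both Ctrl pools in 3 of the 5 (60%), against 27.8% of all genes. In mRNA, RPF or TE, 0 of the 5 passed by limma or limma-voom. In mRNA 2 of the 5 (40%) had an unadjusted p below 0.05 (limma), against 30.6% of all genes. The list comes from the study's own experiments in this tissue and was not independent of it.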

How the data were processed

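MRP genes and comparison lists were chosen with earlier results of these data known. The authors deposited RPKM values (coding reads scaled by coding length and library total), made with cutadapt 1.8.3, TopHat2 2.0.9 and Bowtie 1.0.0 per the labels. The study's methods name mm10, Cufflinks and strand-specific kits for other RNA-seq libraries, with FPKM values and more pools; for the RPKM table, the build, annotation, counting program and strand were not given in the sources used here. No listed value was under 1, so genes low in any library were left out before deposit. The table's columns of group means and log ratios were not used. Values were tested as log2(RPKM + 1) with limma 3.58.1 (R 4.3.3), with intensity trend, for mRNA, RPF and their interaction (TE), two-sided, with Benjamini-Hochberg adjustment over 8562 genes, after tests on simulated data. Fold changes of low genes are understated on this scale. With 2 against 2 pools, an exact permutation test cannot go under p = 0.333.

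Whole reads were recovered from RPKM and GENCODE M21 coding lengths for 98.4% of 8245 matched genes (tolerance 0.001). Coding reads totalled 531966 to 1311977 per RPF library and 5223721 to 8060054 per mRNA library. Counting error is not the spread between mice, and p-values rest on pools. mRNA and RPF libraries of a number were taken to share a pool, from their titles, and TE per pool rests on this. Their replicate differences correlated at 0.045 (Ctrl) and 0.0548 (HuR-FKO). A pool block in the TE fit changed no MRP call. Named genes were those past the threshold, the 3 highest and lowest by level and change (2 for TE), the Mrps18 paralogues, HuR-bound members, and up to 4 per list. Alternatives were another pseudocount, filters, scalings, fits, limma-voom, and each pool left out.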

Additional observations from a re-analysis of the deposited data

How the results depend on the processing

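The count of MRP genes lower in mRNA was 7. It stayed between 5 and 8 with a pseudocount of 0.1, a 5 RPKM filter, median ratio scaling, quantile normalization and limma-voom. Leaving out the main filter (a mean above 1 RPKM) repeated the main fit, since every gene passed it. The whole table gave from 536 to 626 lower genes in these settings. It was 1 in a fit shared by mRNA and RPF, 3 without the intensity trend, 3 once trends with length and G+C were taken out, and from 0 (without HuR-FKO replicate 1) to 12 (without Ctrl replicate 1) with pools left out, where the whole table gave 95 and 717. The genotypes share only replicate numbers (correlation of replicate differences 0.155 in mRNA and -0.0048 in RPF). With a replicate block, 23 MRP genes were lower and 1 (Mrpl45) higher in mRNA, and 1 (Mrps6) lower in RPF. Over all genes, 1031 were lower and 1125 higher in mRNA with the block, against 560 and 642 without it. In RPF, 67 were lower over all genes with the block, against 10. In RPF, 2 (Mrps6 and Mrps18c) were lower in the shared fit, which called 109 lower over all genes. With limma-voom 1 (Mrps6) was lower, of 77 lower over all genes. The mRNA median of -0.18 was -0.067 without trends in length and G+C, and from -0.268 to -0.128 with pools left out. The RPF median of -0.075 ran from -0.104 to 0.048 with pools left out, the last without HuR-FKO replicate 2. MRP calls in TE were 0 in all these fits. The median TE change of 0.091 was 0.024 without trends in length and G+C. The Ctrl TE median of -0.204 was -0.228 with the 5 RPKM filter, -0.174 after quantile normalization, -0.158 without trends in length and G+C, and -0.192 to -0.171 with a pool left out. Causes of these differences were not tested. RPF and TE rested on a median of 13 to 37 RPF reads per MRP gene.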
